A study of Caenorhabditis elegans with 2 samples.

Results

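The genes for the proteins of the cytosolic ribosome were examined for binding of D1046.2, a protein of the nematode Caenorhabditis elegans that the submitters assayed as a transcription factor. Members were the protein-coding genes of the Ensembl annotation whose symbols begin with rpl- (large subunit) or rps- (small subunit), together with rla-0, rla-1 and rla-2, which encode the acidic stalk proteins of the large subunit. Genes for mitochondrial ribosomal proteins were not members. This gave 81 of the 19973 protein-coding genes, of which 50 belong to the large subunit and 31 to the small one.

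Chromatin immunoprecipitation followed by sequencing (ChIP-seq) was done on whole L4 larvae, 50 hours of age, grown from L1 larvae that had been starved after bleaching to synchronise them. The only group held 2 biological replicates of strain OP397. These worms carry the transgene wgIs397, in which D1046.2 from the genomic clone 91F09 is joined to TY1, EGFP and 3xFLAG tags, along with unc-119(+), and they carry the allele unc-119(tm4063); sonicated chromatin was pulled down with an antibody to the fluorescent tag. Whole animals mix all tissues, the fusion is expressed from a transgene, and there was no second condition to compare with. The deposited files hold called regions and not reads, so the depth is unknown, and the control library named by the submitters was not analysed here.

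Each ribosome has a small subunit, which reads the messenger RNA, and a large subunit, which joins the amino acids. The ribosomal proteins are needed in near equal amounts, because each ribosome takes up its proteins in a fixed ratio, and their genes are among the most highly transcribed in growing animals. The data bear on whether D1046.2 was found at these genes, at which of them, and where in the promoter.

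Promoters were windows that begin 500 bp before an annotated 5' end and stop 100 bp after it. A gene was counted as having a peak where the summit of a peak in the conservative list, which keeps regions found reproducibly in both replicates, fell in its promoter. The sequences at the 8 strongest of these peaks on autosomes II to V and on X are shown, because several of them share a pair of short runs. They are the 101 bp centred on the summit, read on the strand of the gene from 5' to 3', from the RefSeq genome sequence of build WBcel235 (ce11). None of them overlaps an annotated exon. Capitals mark a split element of 14 bp, CGAGTG and ACCGTA parted by 2 free bases, on either strand and with at most 1 of its 12 fixed letters changed.

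rpl-29 (chrIV:13881912-13882012, plus strand): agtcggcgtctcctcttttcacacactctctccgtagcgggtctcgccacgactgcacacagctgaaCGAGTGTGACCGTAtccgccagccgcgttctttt
rpl-38 (chrV:15511770-15511870, plus strand): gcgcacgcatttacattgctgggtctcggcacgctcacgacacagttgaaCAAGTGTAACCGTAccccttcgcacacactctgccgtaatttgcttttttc
rpl-11.2 (chrX:2242941-2243041, minus strand): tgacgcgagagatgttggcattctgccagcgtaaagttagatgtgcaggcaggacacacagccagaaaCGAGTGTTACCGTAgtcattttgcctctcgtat
rpl-22 (chrII:5055327-5055427, plus strand): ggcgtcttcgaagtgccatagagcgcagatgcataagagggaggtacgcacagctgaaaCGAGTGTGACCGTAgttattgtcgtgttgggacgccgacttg
rpl-6 (chrIII:7208047-7208147, plus strand): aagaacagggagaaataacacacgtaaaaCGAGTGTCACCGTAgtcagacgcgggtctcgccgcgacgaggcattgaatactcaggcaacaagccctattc
rps-23 (chrIV:12391259-12391359, minus strand): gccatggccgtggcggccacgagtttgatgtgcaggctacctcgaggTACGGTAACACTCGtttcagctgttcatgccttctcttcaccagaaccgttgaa
rpl-21 (chrIII:8130484-8130584, minus strand): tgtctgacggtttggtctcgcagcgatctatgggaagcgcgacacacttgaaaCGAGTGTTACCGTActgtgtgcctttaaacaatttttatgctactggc
rpl-3 (chrIII:3867519-3867619, plus strand): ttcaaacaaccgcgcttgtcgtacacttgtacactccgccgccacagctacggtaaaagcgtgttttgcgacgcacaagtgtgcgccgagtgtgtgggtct

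The element was intact in 6 of these 8 windows. At rpl-38 it carried G2A (the element's own base, its position counted from 1 at the 5' end of the element, then the base found). The rpl-3 window held both runs, but not in this arrangement. At rps-23 the element lay on the strand opposite to the gene. In every marked stretch the first base between the runs, read on the element's strand, was T, although the search left it free.

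A conservative peak was found in the promoter of 34 of the 81 ribosomal protein genes, 42.0% (95% Wilson interval 31.8 to 52.8), where 2.34% of all protein-coding genes had one. Among the genes with any candidate region in the promoter, whether it passed or not, the count was 34 of 70, 48.6% (37.2 to 60.0), against 4.15% of all genes with a candidate. The remaining 11 ribosomal protein genes had no candidate in the promoter. There are 33 peaks for the 34 genes: rps-10 and rpl-24.1 lie head to head across the same summit. Intervals cover the counting of genes only, and neighbouring genes are not independent.

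The count changed little between the lists. The optimal list gave 36 genes, adding rpl-4 and rpl-11.1, where 2.51% of all genes had a peak. The list of replicate 1 alone gave 32 (1.45% of all genes) and that of replicate 2 alone gave 28 (0.976% of all genes). All 28 genes of replicate 2 were also in the list of replicate 1 and in the conservative list. Of the other conservative genes, rpl-41.2 and rpl-24.2 had a peak in replicate 1 only, and rps-20, rps-4, rpl-7 and rpl-14 had none in either replicate's own list. Replicate 1 alone added rpl-4 and rps-15.

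Both subunits had peaks in like shares. The large subunit had them at 21 of 50 genes, 42.0% (29.4 to 55.8), and the small subunit at 13 of 31, 41.9% (26.4 to 59.2). The signal of the peaks, which is the authors' own value on a scale not given in the sources used here, had a median of 388 over the 21 large subunit genes (76.7 to 1583) and 212 over the 13 small subunit genes (87.1 to 818). The ranges overlap. Of the 100 strongest peaks, 16 large and 6 small subunit genes took a share, with the peak of rpl-24.1 and rps-10 counted for both.

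**Figure D1:**
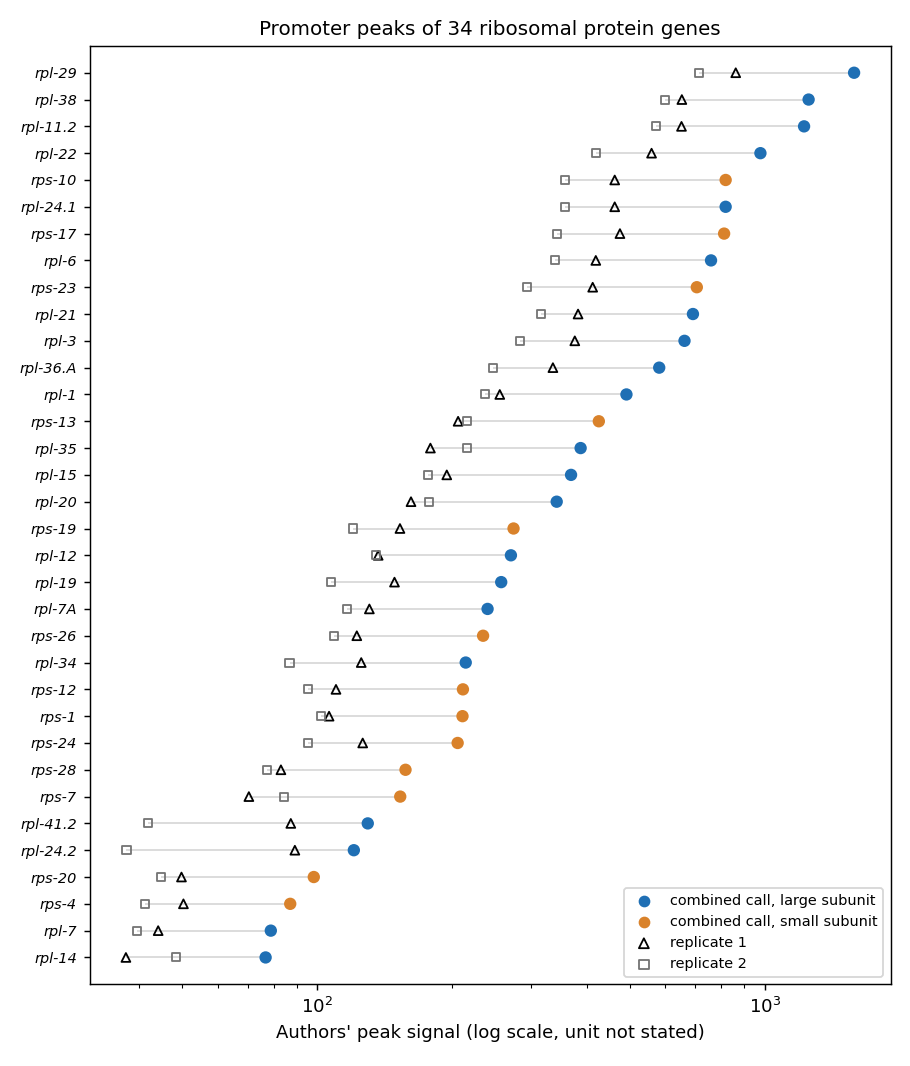
Signal of the promoter peak of each of the 34 ribosomal protein genes on a log scale, as the combined value of the conservative list (filled circles) and as the value of the matched region in each replicate (open symbols). Combined values run from 76.7 at rpl-14 to 1583 at rpl-29, and replicate 1 lies above replicate 2 at 29 of the 34 genes.

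Among the large subunit genes the strongest peak was that of rpl-29 (WBGene00004443), chrIV:13881800-13882105, with its summit 263 bp upstream of the 5' end. Its signal was 1583 in the combined list, 861 in replicate 1 and 712 in replicate 2. At rpl-38 (WBGene00004452), whose mouse counterpart is known for its effect on the skeleton when mutated, the values were 1253, 653 and 599, with the summit 346 bp upstream. At rpl-11.2 (WBGene00004423), which encodes a protein that binds the 5S ribosomal RNA, they were 1224, 652 and 572, with the summit 373 bp upstream. These are the 3 strongest member peaks in the combined list and in each replicate, ranked 2, 4 and 5 among all 1546 peaks. At all 34 member genes the combined value exceeded that of either replicate, and the values are not on the same scale.

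The next large subunit genes covered several working parts of the ribosome. At rpl-22 the signal was 978 in the combined list, 559 in replicate 1 and 420 in replicate 2. The rpl-24.1 gene, for a protein that in yeast bridges the subunits, had 818, 462 and 358. At rpl-6 the values were 758, 419 and 339. All of these had a higher value in replicate 1. The gene rpl-21 had 691, 383 and 316. At rpl-3, whose protein in yeast reaches toward the peptidyl transferase centre where peptide bonds form, the values were 662, 376 and 284. At rpl-36.A, for a protein near the exit site of transfer RNA in yeast and mammals, they were 581, 336 and 247. The stalk protein gene rpl-1, whose protein moves with the transfer RNA that leaves the ribosome, followed with 491, 256 and 237.

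Lower large subunit peaks included rpl-35, whose protein lines the end of the exit tunnel, with a combined signal of 388, and rpl-12, for a protein at the base of the acidic stalk, with 271. The gene rpl-19, another subunit bridge in yeast, had 258. The weakest were rpl-7 with 78.8 (44.2 in replicate 1 and 39.6 in replicate 2) and rpl-14 with 76.7 (37.4 and 48.4). These ranked 1325 and 1379 of 1546, and the irreproducible discovery rate (IDR, the authors' measure of how poorly replicates agree, kept at 0.01 or lower in this list) was 0.00593 and 0.00627.

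In the small subunit the strongest peaks were those of rps-10, shared with rpl-24.1, and of rps-17, whose human counterpart is mutated in Diamond-Blackfan anaemia, with a signal of 811 in the combined list, 475 in replicate 1 and 343 in replicate 2. The gene rps-23, for a protein of the decoding centre where codons are read, had 705, 413 and 294. Replicate 1 was higher at both. At rps-13 the order was the reverse, with 426 in the combined list, 207 in replicate 1 and 217 in replicate 2. At rps-19, also a Diamond-Blackfan gene in humans, the values were 275, 153 and 121. The gene rps-26, for a protein at the exit of the messenger RNA channel, had 235, 123 and 109. The remaining small subunit peaks were those of rps-12 (212), rps-1 (211), rps-24 (206), rps-28 (158), rps-7 (153) and rps-20 (98.3), each a combined signal. The weakest was rps-4, with 87.1 in the combined list, 50.3 in replicate 1 and 41.3 in replicate 2.

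Over all, the 33 peaks had a median signal of 275, against 106 for the 364 other peaks in promoters and 95.5 for the whole list. Of the member peaks, 30 were at or above the median of the list and 3 below it. They made up 5 of the 10 strongest peaks, 10 of the strongest 25, 16 of the strongest 50 and 21 of the strongest 100. From there the count rose slowly, to 25 among 200 and 29 among 500. By gene, the median was 309, with quartiles of 207 and 701, against 110 over the 434 other genes with a promoter peak. The 434 include non-member genes that share a member peak.

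**Figure D2:**
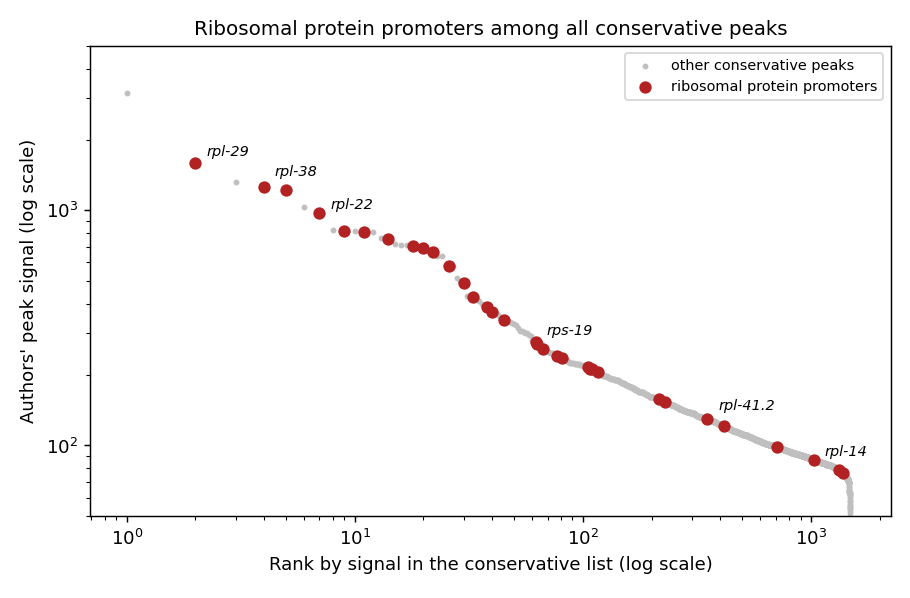
Signal against rank for the peaks of the conservative list, both on log scales, with the 33 ribosomal protein promoter peaks in red; 56 other peaks lie below the lower end of the axis, at 50, and are not drawn. Member peaks sit mostly at the strong end, with 21 of 33 among the 100 strongest, and a tail reaches rank 1379 at rpl-14.

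The replicates differed in level. Replicate 1 gave the higher value at 29 of the 34 genes and replicate 2 at 5. The ratio of replicate 1 to replicate 2 had a median of 1.18 and ran from 0.773 to 2.38, and over the 1497 other peaks with a value in both its median was 1.05. Replicate 1 was also the higher at every non-member peak among the 25 strongest, so a higher value there was not particular to the members. The most uneven genes were rpl-24.2, with 89.2 in replicate 1 and 37.5 in replicate 2, and rpl-41.2, with 87.3 and 41.8. Both are the genes found in the list of replicate 1 but not of replicate 2. With 2 replicates in 1 group, these values describe the spread and allow no test between conditions.

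Summits lay upstream of the nearest annotated 5' end, most of them at a similar distance. That of rpl-19 was upstream of the inner of its 2 annotated 5' ends and so inside the annotated gene. The median summit was 286.5 bp upstream of the nearest 5' end, with quartiles at 247 and 344.5 bp, while for the 434 other genes it was 206.5 bp with quartiles at 96.25 and 323.75 bp. Those 434 again include non-member genes that share a member peak. Between 200 and 400 bp upstream lay 26 of the 34 member summits, 76.5% (60.0 to 87.6), and 163 of the 434 others, 37.6% (33.1 to 42.2). No more than 100 bp upstream of the 5' end, or anywhere downstream of it, lay 2 member summits, against 112 of the 434 others, 25.8% (21.9 to 30.1). These were the summits of rpl-12, 37 bp upstream, and rpl-7A, 21 bp upstream. The farthest was that of rpl-35, at 457 bp. Median distances were 294 bp for the large and 266 bp for the small subunit. Counted from the start codon, the median over both was 300.0 bp. Many worm transcripts receive a spliced leader, so an annotated 5' end can be the splice site and not the start of transcription, and distances are from the annotated end.

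**Figure D3:**
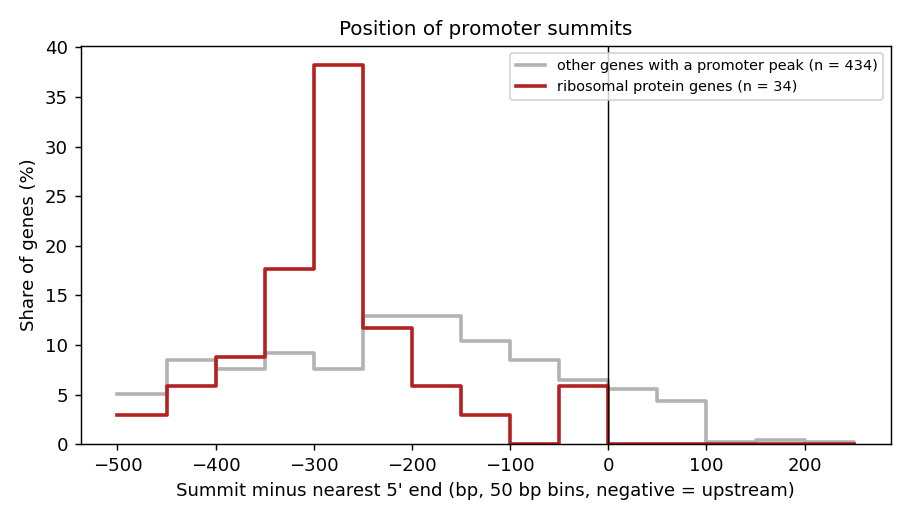
Share of genes by the distance of the summit from the nearest annotated 5' end, in bins of 50 bp with negative values upstream, for the 34 ribosomal protein genes (red) and the 434 other genes with a promoter peak (grey). The red line is highest between 250 and 300 bp upstream, and the grey line is spread across the whole window.

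Shared promoters were frequent. A peak lay in the promoter of a further protein-coding gene at 16 of the 33 member peaks, 48.5% (32.5 to 64.8), and at 72 of the 364 other promoter peaks, 19.8% (16.01 to 24.2). At all 16 the genes ran in opposite directions away from the peak. The 5' ends were 254 to 814 bp apart, with a median of 459.5 bp, and the member's end was the nearer to the summit at 8 peaks and the partner's at 8. Shared peaks had a median signal of 356 (98.3 to 978) and the 17 unshared ones 211 (76.7 to 1583), and these ranges overlap. For a shared peak the files do not tell which gene the binding belongs to.

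The partners were of many kinds. The strongest shared peak lay between rpl-22 and ify-1, the securin gene, 239 and 198 bp from their 5' ends. The peak between rpl-24.1 and rps-10, 270 and 340 bp from their ends, joined genes of both subunits. Other partners were dpm-3 at rps-23, for a subunit of dolichol phosphate mannose synthase, nuo-1 at rpl-36.A, for a subunit of respiratory complex I, and lin-54 at rpl-12, for a DNA-binding protein of the DRM complex. At rps-13 the partner was nfx-1, at rps-19 hsr-9, at rps-20 ekl-4 and at rpl-7A set-21. At rps-26 it was tmem-107, at rpl-34 ppm-1.H and at rps-12 ska-3. Partners named here only by sequence were C14B9.10 at rpl-21, Y71F9AL.9 at rpl-1, K11H12.8 at rpl-15 and Y17G9B.5 at rpl-20. The summit of rpl-12 lay 37 bp from rpl-12 and 356 bp from lin-54, and that of rps-26 lay 384 bp from rps-26 and 73 bp from tmem-107.

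Small noncoding RNA genes lay near some member peaks. Within 500 bp of a small nucleolar RNA gene lay 4 of the 33, 12.1% (4.82 to 27.3), against 16 of the 364 other promoter peaks, 4.40% (2.72 to 7.02), and the intervals overlap. The 4 were those of rpl-24.1, rpl-7A, rps-26 and rps-12, whose neighbours were D1007.20, Y24D9A.9, F39B2.14 and F54E7.10. Near a tRNA gene lay 0 of the 33 (up to 10.4%) and 37 of the 364 others, 10.2% (7.46 to 13.7), and these intervals also overlap. Near an snRNA gene lay 0 of 33 and 1 of 364, and near a microRNA gene again 0 and 1.

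Most worm ribosomal proteins have a single gene, and the symbols with a numbered copy or a close name were compared in full. For rpl-11, rpl-11.2 had a peak of 1224, while rpl-11.1 had a candidate of 82.4 that did not pass (51.1 in replicate 1 and 28.8 in replicate 2, IDR 0.0251), 19 bp upstream. For rpl-24, rpl-24.1 had 818 and rpl-24.2, whose protein resembles a factor of ribosome assembly in yeast and mammals, had 121. In both of these the weaker gene was weaker in each replicate. For rpl-41, which encodes the smallest ribosomal protein, rpl-41.2 had a peak of 130 and its upstream neighbour rpl-41.1 a candidate of 50.1 that did not pass. For rpl-25, neither gene had a peak: rpl-25.2 had a candidate of 46.3 and rpl-25.1 had none in its promoter. The names rpl-36.A and rpl-36 stand for different proteins, with a peak of 581 at the former and a candidate of 44.6 at the latter. So do rpl-7A, with a peak of 240, and rpl-7, with 78.8.

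The 47 ribosomal protein genes without a peak included genes of central parts of the ribosome. For 36 of them a candidate lay in the promoter, with a median signal of 45.4 (11.3 to 91.2) and a median IDR of 0.249 (0.0149 to 0.696). The 10780 other genes with a candidate and no peak had a median signal of 32.5, taking the strongest candidate of each. The highest member values were those of rpl-4, at 91.2 (65.6 in replicate 1 and 30.3 in replicate 2, IDR 0.0149), and rpl-11.1, given above. Both exceed the signal of the weakest member peak, and both are in the optimal list. Then came rpl-5, for the partner of RPL-11 on the 5S RNA, with 73.4 (33.9 and 34.1), rpl-23 with 72.7 (29.0 and 47.2) and rpl-27 with 69.4 (28.8 and 39.6). Replicate 1 was the higher at rpl-4 and rpl-11.1, replicate 2 at rpl-23 and rpl-27, and the replicates were nearly level at rpl-5.

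The weakest candidates were those of rpl-28 at 25.2, rpl-9 at 15.3 and rpl-42 at 11.3. Other genes without a peak were rps-3, for a protein at the entry of the messenger RNA channel, at 53.0, and rps-6, the substrate of S6 kinase in mammals, at 30.7. A pair of head-to-head promoters joined large and small subunit genes as rpl-24.1 and rps-10 do, but without a peak: rpl-39 with rps-30 had 1 candidate of 52.8, and rpl-36 with rps-14 had 1 of 44.6. No promoter candidate was found at rla-0 and rla-2 of the acidic stalk, rpl-10, rpl-17, rpl-18, rpl-25.1, rpl-26, rps-5, rps-15, rps-18 and rps-29. By subunit these were 7 large and 4 small genes. Each had a candidate outside the promoter window. The nearest summit was 508 bp upstream at rps-29. At the others it lay downstream, from 134 bp at rpl-17 to 780 bp at rpl-18. The rpl-10 product sits beside the peptidyl transferase centre in yeast. The gene rps-15 had a peak in the list of replicate 1 alone, although the ranked list that compares the replicates has no candidate in its promoter.

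**Figure D4:**
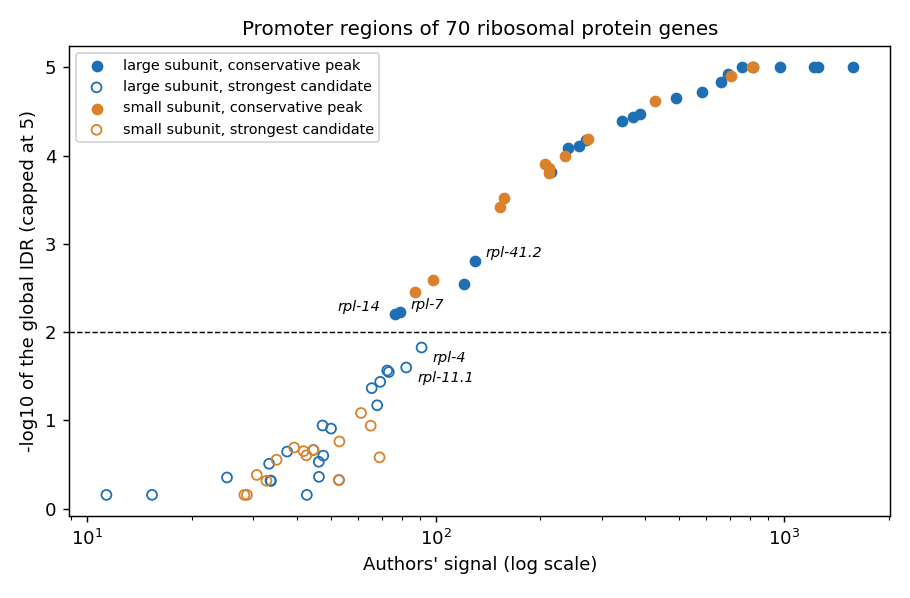
The -log10 of the IDR against the signal on a log scale for the 70 ribosomal protein genes with a region in the promoter, as a conservative peak (filled) or a candidate that did not pass (open). The -log10 values are capped at 5 by the authors, and the dashed line is at 2. Both measures rise together and the genes form a continuous series, with rpl-4 and rpl-11.1 just under the line at signals of 91.2 and 82.4 and rpl-7 and rpl-14 just above it at 78.8 and 76.7.

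Some genes without a promoter peak had one nearby. For 6 of the 47, a conservative summit lay within 1000 bp of a 5' end but out of the promoter window: rpl-27, rpl-32, rpl-41.1, rpl-43, rps-18 and rps-29. At the first 4 the summit lay downstream of the 5' end, by 689, 301, 805 and 550 bp, and the one at rpl-41.1 is the peak already counted for rpl-41.2. At the other 2 it lay upstream. At rps-29 it was 508 bp upstream, 8 bp beyond the window, in the promoter of the head-to-head gene snt-2, a synaptotagmin gene, with a signal of 1028 and rank 6. At rps-18 it was 636 bp upstream, 221 bp inside the head-to-head gene sec-61.A and so in no promoter, with a signal of 805. The share of all protein-coding genes with a summit so placed was not computed. The 6 of 47 thus show nothing particular to the members. An upstream neighbour on the opposite strand lay within 500 bp for 10 of the 34 genes with a peak and 12 of the 47 without. A neighbour on the same strand did so for 3 and 6.

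Genes with a peak were on every chromosome. Chromosome I had 13 of 25 members with a peak, chromosome IV 10 of 18 and chromosome III 7 of 18. Chromosome II had 2 of 10, chromosome V 1 of 8 and the X chromosome 1 of 2. The share of all protein-coding genes with a peak was not computed by chromosome, so these counts show no difference particular to the members. The peak of rpl-38 was thus the only member peak on V, and that of rpl-11.2 the only one on X.

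The split element was read off the strongest windows after they were seen, so its presence there is a description and its relation to signal is not independent evidence. CGAGTG, 2 free bases and ACCGTA, with both strands searched, occurred 33 times in the genome without a change, and 27 of these sites, 81.8%, lay within 50 bp of a conservative summit. With 1 letter changed there were 139 sites, of which 11 (7.91%) were that near, and with 2 changed 2416, of which 9 (0.373%) were. The unchanged element lay at 12 of the 33 member peaks, 36.4%, and at 14 of the 364 other promoter peaks, 3.85%. It also lay at 2 of the 105375 candidates that did not pass. With 33 sites in the genome that share could only be very small, so it gives no contrast with the peaks. With up to 1 letter changed it lay at 15 member peaks, 45.5%, and at 5.49% of the other promoter peaks. The peaks of rpl-38 and rps-17 carried G2A and that of rpl-36.A carried C11A. With up to 2 letters changed the member count was again 15.

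Member peaks with the unchanged element had a median signal of 698 (153 to 1583, n = 12), and those without 235 (76.7 to 1253, n = 21). With up to 1 letter changed the medians were 705 (n = 15) and 211 (76.7 to 662, n = 18). The ranges overlap: rps-7 had the element and a signal of 153, and rpl-3 lacked it with 662. Of the 18 peaks without it, those of rpl-3, rpl-15 and rpl-20 held both runs in another arrangement, 1 held CGAGTG alone, 4 held ACCGTA alone and 10 held neither. Elsewhere the unchanged element lay at 15 peaks whose summit was in no member promoter. Among them were the strongest of the whole list, at eel-1, and those at npp-3, snt-2, T26A8.4 and sec-61.A. The peaks at snt-2 and sec-61.A are the ones upstream of rps-29 and rps-18 described above. Of the 10 strongest peaks of the list, 8 had the unchanged element.

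**Figure D5:**
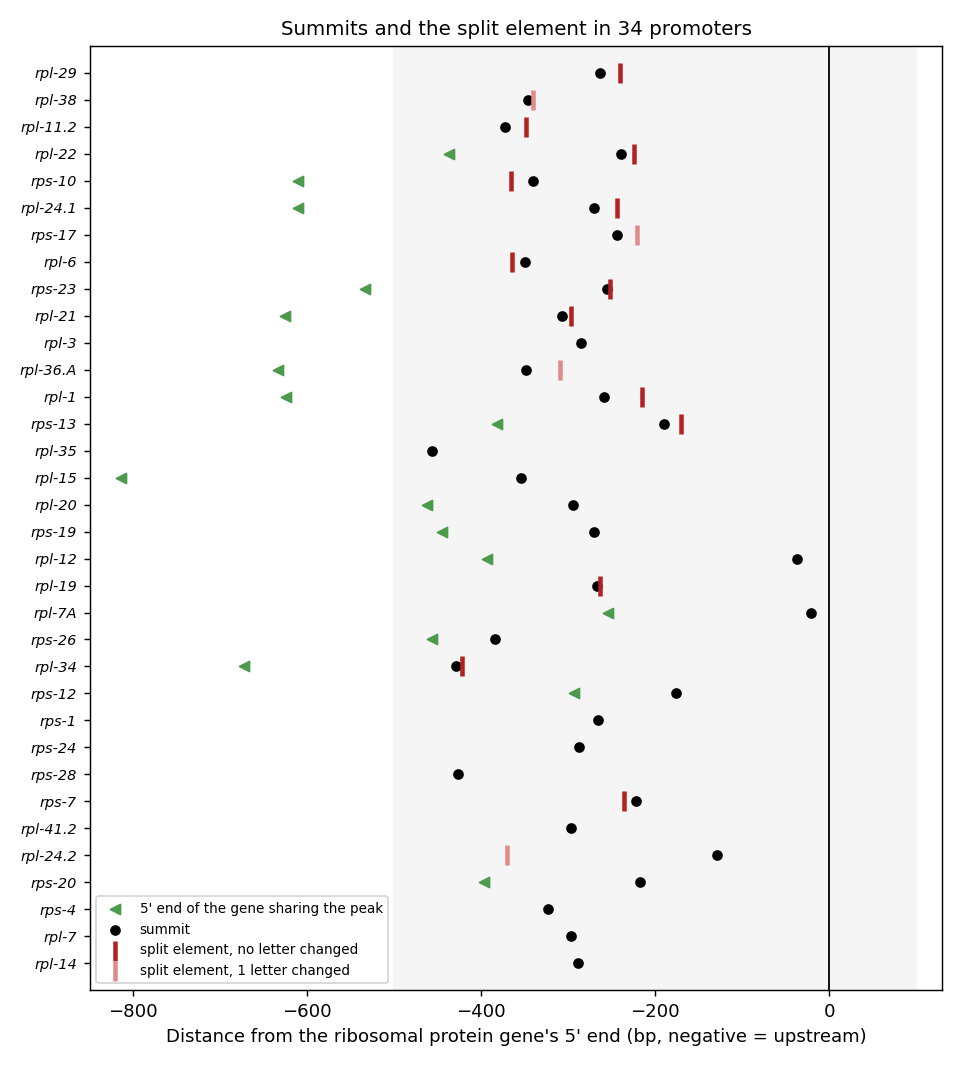
Distance in bp from the 5' end of each of the 34 ribosomal protein genes, with negative values upstream, of the summit (black), the split element (dark red unchanged, light red with 1 letter changed) and the 5' end of the gene that shares the peak (green); the grey band is the promoter window. Where an element is drawn it lies 3 to 44 bp from the summit, except at rpl-24.2, where it is 241 bp away.

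By promoter, 13 of the 34 genes with a peak held the unchanged element, 10 on the strand of the gene and 3 on the other, and 1 of the 47 without a peak did. That was rps-29, where it lay 488 bp upstream and 20 bp from the summit in the snt-2 promoter. Over all protein-coding genes 47 held it, 0.235%. With up to 1 letter changed the counts were 17 of 34, 1 of 47 and, over all genes, 79 or 0.396%. In the 16 genes with an element within 50 bp of the summit, the distance had a median of 17.5 bp.

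A further 8 runs of 6 letters, listed apart from the element, were also counted in the 101 bp windows on both strands. CGAACC was in 0 of the 33 member windows and in 7.97% of the 364 other promoter windows. For TATAAA these were 0 and 1.37%, and for TGATAA 0 and 3.85%. GAGAGA was in 15.2% of member and 13.7% of other promoter windows, TTTCAG in 9.09% and 13.2%, GCGCGC in 6.06% and 11.0%, GGGCGG in 6.06% and 7.14% and CACGTG in 3.03% and 4.40%. Each 6.06% stands for 2 peaks, so small differences in these shares rest on few windows. Of the runs picked after the windows were seen, ACCGTA was in 63.6% and 11.5%, CGAGTG in 51.5% and 9.62%, and GGTCTC in 24.2% and 11.5%. The share of G and C was 51.1% ± 4.91 (SD over 33 member windows) and 49.4% ± 8.05 (SD over 364 other promoter windows), and the means were not tested against each other.

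Related genes outside the set were looked up for context. For mitochondrial ribosomal proteins, 0 of 70 genes had a peak, and 43 of them had a candidate. The share over all protein-coding genes, 2.34%, is itself so low that a count of 0 in a list of this size is near it. Of 46 genes for ribosome assembly found in the annotation, 3 had a peak, 6.52%: pro-1 with a signal of 168, nol-58, for a box C/D small nucleolar RNP protein, with 104, and ruvb-1 with 83.4. This too is a small count beside the 2.34% of all genes. All of these lie under 207, the lower quartile of the ribosomal protein genes. The ubiquitin fusion genes ubl-1 and ubq-2, which also encode a ribosomal protein each, and rack-1, for a protein bound to the small subunit, had no peak. Other ribosomal protein genes whose symbols fall outside the naming rule were not looked up, so these genes do not stand for all of them.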

How the data were processed

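ChIP-seq was done on 2 biological replicates of 1 group. Per the labels and file names, regions were called by the authors on build ce11 and deposited as lists ranked and thresholded by the irreproducible discovery rate; names of the aligner and caller were not given in the sources used here. The deposited signal of a region is the authors' value on an unstated scale and was used only to describe and rank within a list. The deposited score is the authors' scaled IDR score, and its lowest value in the conservative list was 830. The IDR was taken from the deposited -log10 values, 2.00 or more in that list. The list comparing replicates was taken as the ranked list in which every conservative peak passes that threshold. Of its values for the first replicate 82.4%, and of those for the second 79.6%, recur in the replicates' own lists. Values per replicate come from the region of each replicate's own ranked list that matches the peak.

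The reference was Ensembl release 115 with RefSeq sequence (WBcel235), and 75 of the 81 members had the same outer 5' end in both. Members, lists and tests were chosen with earlier results of these data known. Genes named are the 12 strongest members, the 3 weakest with a peak, the 5 strongest and 3 weakest without one, all with a numbered copy or shared peak, and others named for their role or position after their values were seen. Shares have 95% Wilson intervals, and no filter on low values was used. The promoter assignment was tested on simulated summits. No test between conditions was possible. Alternatives were other lists, windows, distances and annotations. Software was matplotlib 3.10.9, pandas 2.3.3, numpy 2.4.6, scipy 1.17.1 and Python 3.11.15.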

Additional observations from a re-analysis of the deposited data

How the results depend on the processing

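Of the alternatives tried, including those for the split element, 38 values stayed within the set limits, 16 moved and none reversed. For counts the limit was a fixed ratio to the main value, and for medians the SD between the replicates. The limit for counts was wide: shared peaks rose from 16 to 23 with 1000 bp upstream and were still within it. A promoter from 250 bp upstream to 50 bp downstream leaves out most member summits by construction: it gave 9 genes (4 large, 5 small), 5 shared peaks, a median signal of 240 and a median summit at -190 bp. The other promoters and lists gave 28 to 37 genes. The share of all protein-coding genes was computed for the lists but not for the other promoter windows. The member counts in those windows therefore stand without a background. The median signal of 309 was 273 in the optimal list, 343 with 1000 bp upstream, 275 with 500 bp downstream or 1 value per peak, and 171 to 216 with 1 replicate alone, whose values are on another scale. The median summit of -286.5 bp was at -277.5 and -285.5 bp with 1 replicate left out and at -300.0 bp from the start codon. The median candidate signal of 45.4 was 23.7 to 26.0 with 1 replicate alone. The limits on changed letters and on distance for the split element were chosen after seeing the data, and its member count was 12 to 15. No paired analysis was possible because there is 1 group. With peak lists only, read depth, the control and the level of each gene's expression were not examined.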
